A study of Sus scrofa with 8 samples.

Results

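CYP21A2, MT1A and GADD45A were examined in the whole blood of sows (Sus scrofa) as 3 genes tied to glucocorticoid synthesis and to the stress response. All probes whose RefSeq transcript belongs to one of them were taken, which gave 6 probes, 3 for CYP21A2, 2 for MT1A and 1 for GADD45A. The microarray has named probes for 2382 genes in all. The genes were chosen by their log2 difference between pregnant and non-pregnant sows on these same arrays, so that difference is described here for them and not tested.

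Blood came from 8 females in the fifth parity, 4 of them pregnant and 4 not, sampled 14 days after insemination. The sows were picked as 3 pairs that share a parent and 1 unrelated pair, but the labels do not say which sows form a pair. Blood was lysed soon after it was drawn, and the cells were not sorted. Each sow was measured on 1 single-colour Agilent porcine array, so differences between animals and between arrays cannot be told apart.

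CYP21A2 encodes steroid 21-hydroxylase, an enzyme of the adrenal cortex that acts on progesterone and 17-hydroxyprogesterone on the way to aldosterone and cortisol. Cortisol binds the glucocorticoid receptor NR3C1, which moves to the nucleus and changes transcription in most blood leukocytes. MT1A encodes a metallothionein, a small cysteine-rich protein that binds zinc and copper and is induced by metals and by glucocorticoids. GADD45A is induced by DNA damage and other stresses and slows the cell cycle.

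Between 61.7% and 69.2% of spots were well above background on each array, and 0 spots were saturated. On each array the 75th percentile of processed signals lay between 142 and 296 intensity units, and log2 values below are relative to it, so that 0 is the 75th percentile of an array. Pregnant replicate 2 differed from the other arrays: its 75th percentile was the lowest, and it brought the lowest correlation between arrays to 0.870, against 0.946 without it. Replicates 1 and 3 of both groups lay on slide 1 and replicates 2 and 4 on slide 2. In the fit over 1817 genes limma called 0 (0% of genes, smallest adjusted p = 0.348), with 44 genes at an unadjusted p under 0.05.

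CYP21A2 was higher in pregnant sows at its brightest probe, A_72_P223372, called probe 1 here. The pregnant values were -2.08, 1.29, -1.59 and -1.13 in replicates 1 to 4, on the log2 scale relative to the 75th percentile. The non-pregnant values were -2.42, -3.23, -2.18 and -3.91. All 4 pregnant sows lay above all 4 non-pregnant sows, though pregnant replicate 1 and non-pregnant replicate 3 were 0.10 apart. The groups also did not overlap before scaling, where the pregnant signals were 70.0, 347, 76.8 and 102 intensity units and the non-pregnant signals 43.2, 26.2, 47.2 and 11.6. Groups did not overlap with pregnant sows higher in 0.715% of the 1817 genes, and nothing is read from that share because the gene was chosen for this contrast.

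The mean of probe 1 was -0.88 ± 1.50 in pregnant and -2.94 ± 0.79 in non-pregnant sows (SD, n = 4 each), a difference of 2.06 on the log2 scale or 4.17-fold. A larger difference, in either direction, was found in 0.0551% of the other genes. Nothing is read from that share, because the gene was chosen by this difference. The probe was kept through the pregnant group, with 4 pregnant and 3 non-pregnant arrays well above background. The spread was wide as well. The SD within groups, 1.20, was larger than that of 92.6% of genes, and larger than that of 91.9% of the 385 genes within 1 log2 unit of its level, whose median SD was 0.50. The lowest spot, in non-pregnant replicate 4, was not well above background, so its value bounds the level from above. Over the other 7 arrays the scaled signal ranged 23.0-fold and the difference was 1.73 (3.32-fold). Pregnant replicate 2 was the highest array, 5.35-fold above the next.

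The difference was uneven between slides. On slide 1 it was 0.46 (1.38-fold). On slide 2, which held both the highest and the lowest sow, the measured values differed by 3.66. Without the spot of non-pregnant replicate 4 the slide 2 difference was 3.32 (9.96-fold), against a single non-pregnant sow. Without pregnant replicate 2 the difference was 1.34 (2.53-fold). With normexp background correction of the median signals, an offset of 50 intensity units and quantile normalization together, it was 0.49. Quantile normalization alone gave 2.05.

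**Figure D1:**
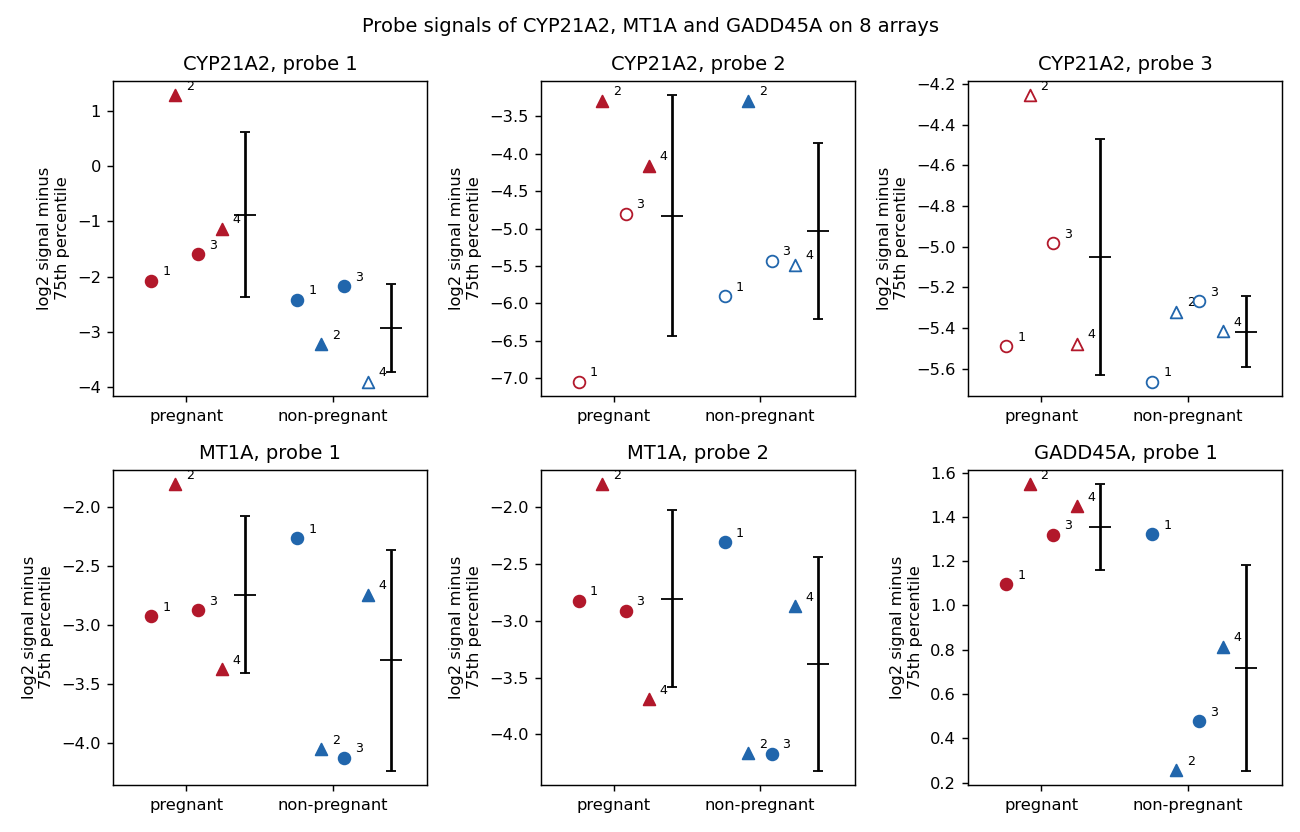
Log2 signal minus the array's 75th percentile for the 6 probes, with pregnant sows in red, non-pregnant sows in blue, circles for slide 1, triangles for slide 2 and open symbols for spots not well above background. Numbers give the replicate, and bars show the mean ± SD of 4 sows. CYP21A2 probe 1 is the one panel in which the groups do not overlap.

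The other CYP21A2 probes were too dim to give a difference between the groups. Probe 2 (A_72_P696552) was well above background on 3 of 8 arrays, pregnant replicates 2 and 4 and non-pregnant replicate 2. On these it read -3.29, -4.16 and -3.29, where probe 1 read 1.29, -1.13 and -3.23. The wide gap of probe 1 between pregnant and non-pregnant replicate 2 was thus absent at probe 2. On the other 5 arrays its processed signals were at most 8.29 intensity units and give a bound only.

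Probe 3 (A_72_P547771) was well above background on 0 arrays. Its processed signals were 4.09 to 7.41 intensity units, and its values relative to the 75th percentile ran from -5.66 to -4.26. It gives an upper bound on the signal of its target and no level. All 3 probes name the same transcript, NM_214433. The files give no probe sequences, so which exons the probes read was not examined here.

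The 2 MT1A probes followed each other closely. Over the 8 arrays they correlated at r = 0.99, where the median over 6543 pairs of measured probes that share a transcript was 0.90, and 93.4% of those pairs had a lower r. The difference between the MT1A probes varied with an SD of 0.12 on the log2 scale, against 0.18 in the median pair. These correlations describe probes on the same 8 arrays, and the probes of a pair share the RNA and scaling of each array. For CYP21A2 the agreement was poorer, with r = 0.41 and an SD of 1.58 for probes 1 and 2. Probes 1 and 3 had r = 0.78 and an SD of 1.25. Probes 2 and 3 were mostly not well above background, so these values rest largely on spots that give a bound only.

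**Figure D2:**
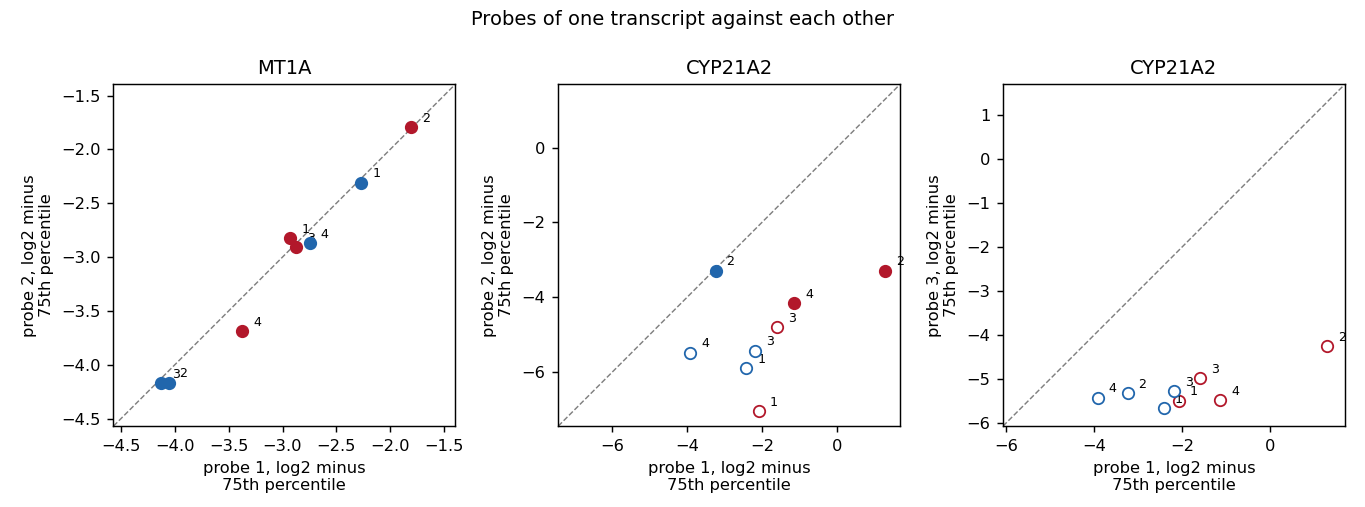
Log2 signal minus the array's 75th percentile of one probe against another probe of the same transcript, one point per array with its replicate number, pregnant in red and non-pregnant in blue. Open points mark arrays on which the probe on the vertical axis was not well above background, and the dashed line marks equal values. The MT1A probes lie along the line. CYP21A2 probe 2 is filled on 3 arrays and probe 3 on 0.

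The other genes of steroid synthesis and cortisone conversion were mostly measurable, and 0 of them passed the test. Of 23 listed besides CYP21A2, 16 had a named probe and 13 were tested. Pregnant sows had the higher mean in 9 of these and the lower in 4. The median difference was 0.10, against -0.034 over all genes. Limma called 0 higher and 0 lower (adjusted p = 0.999 for each). Without pregnant replicate 2 the median of the list was -0.16. A median of all genes without that array is not given here, so whether the shift is particular to this list cannot be told.

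Enzymes that act before CYP21A2 were read on the same arrays. HSD3B1, which makes progesterone, averaged 0.17 ± 2.21 in the pregnant group and 0.12 ± 0.66 in the other, a difference of 0.051 (95% interval -2.05 to 2.15, limma adjusted p = 0.999). Its pregnant values were -0.86, 2.92, 0.83 and -2.20 in replicates 1 to 4, so that the highest and the lowest of the 8 sows were both pregnant. CYP11A1, the side-chain cleavage enzyme that starts steroid synthesis from cholesterol, had pregnant values of -2.29, 0.66, -1.18 and -3.04 and a difference of 0.16. STAR, which carries cholesterol into mitochondria, ranged only from -4.37 to -3.33 over the 8 sows at its brightest kept probe, with a difference of 0.10.

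CYP17A1, the 17-hydroxylase, was not well above background on enough arrays to be tested: its better probe passed on 2 of 8 arrays. HSD11B1, which turns cortisone into cortisol, averaged -2.66 ± 0.33 in the pregnant group and -2.01 ± 0.81 in the other, a difference of -0.65 (95% interval -1.54 to 0.24, limma adjusted p = 0.999). Its non-pregnant replicate 2 was at -0.81 and the other 7 sows between -3.00 and -2.24. HSD11B2, which inactivates cortisol to cortisone, differed by 0.29 (95% interval -0.97 to 1.54, limma adjusted p = 0.999).

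Several of these genes shared the high array of CYP21A2. Of the 13 tested, 6 (46.2%) were highest on pregnant replicate 2, as were 481 of all 1817 genes (26.5%). There HSD3B1 was 4.25-fold, CYP11A1 3.43-fold and HSD11B2 2.52-fold above the next array. At least 4-fold above every other array were 1 of the 13 (7.69%) and 35 of all 1817 genes (1.93%). MT1A (1.38-fold) and GADD45A (1.07-fold) were also highest on pregnant replicate 2. Over the 4 tested markers of adrenal cortex, STAR, CYP11A1, HSD3B1 and NR5A1, the mean was 0.16 on pregnant replicate 2 and -2.99 to -1.45 on the other 7 arrays. The summed signal of these 4, as log2, ran from -0.90 to 3.46 in pregnant and from -0.036 to 1.39 in non-pregnant sows. STAR was not raised on pregnant replicate 2 at its brightest kept probe (-3.78). The part of this array in the CYP21A2 difference was measured by leaving it out, as given above.

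A second CYP11A1 probe, well above background on 7 of 8 arrays, differed by -0.79 where the brightest differed by 0.16. A second HSD3B1 probe was well above background on 2 arrays, too few to compare. All 3 probes of HSD11B1 that were well above background throughout pointed lower, with differences of -0.65 to -0.42.

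**Figure D3:**
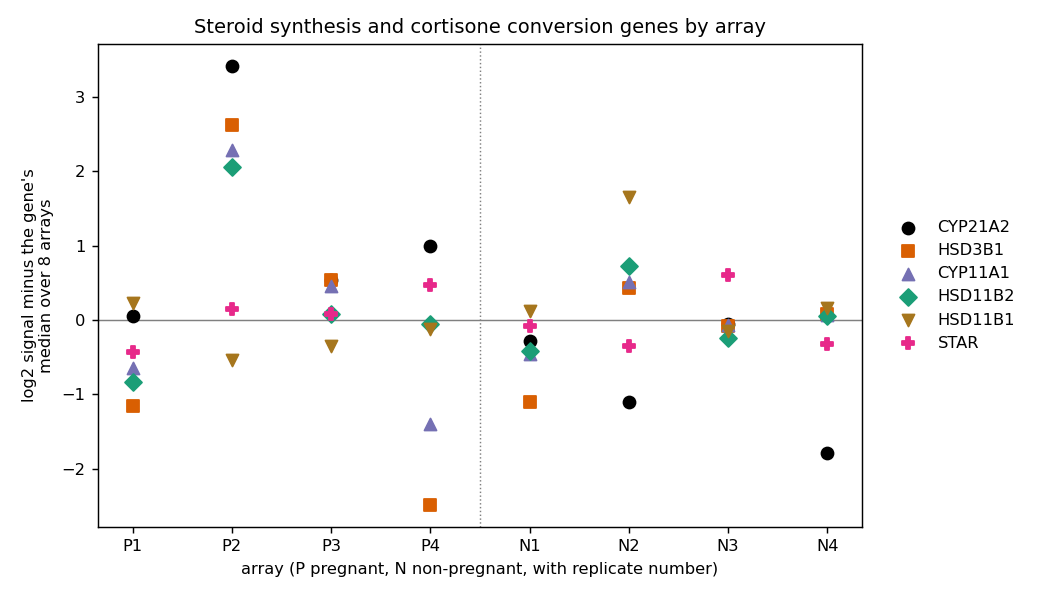
Log2 signal of 6 genes on each array, minus the gene's median over the 8 arrays, at the brightest probe of each gene. CYP21A2, HSD3B1, CYP11A1 and HSD11B2 are highest on pregnant replicate 2, STAR and HSD11B1 are not.

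CYP21A2 lies on chromosome 7 between C4A and TNXB, in the class III region of the pig MHC, and the TNXB gene model overlaps it in the Sscrofa11.1 annotation. Its neighbours did not share its difference. All 10 nearest genes, 5 on each side, were tested, and limma called 0 of them (adjusted p = 0.999 each). C4A, a complement component, differed by 0.12 (95% interval -0.35 to 0.59). TNXB, an extracellular matrix protein, differed by 0.21 (95% interval -0.50 to 0.91), or -0.063 without pregnant replicate 2, and its second probe, well above background on too few arrays to be tested, by -0.32. ATF6B, a transcription factor of the endoplasmic reticulum stress response, differed by -0.077 (95% interval -0.57 to 0.42). Over a wider list of 14 tested genes of the region the differences ran from -0.31 for STK19 to 0.21 for C2, with a median of 0.045.

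MT1A was slightly higher on average in pregnant sows, but the groups overlapped widely. At probe 1 (A_72_P079681) the pregnant values were -2.93, -1.81, -2.88 and -3.38 in replicates 1 to 4. The non-pregnant values were -2.27, -4.06, -4.13 and -2.75. The non-pregnant sows thus fell into 2 with a high and 2 with a low level, and the pregnant sows lay mostly between them. Of the 16 pairings of a pregnant with a non-pregnant sow, the pregnant one was higher in 10.

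The means of MT1A probe 1 were -2.75 ± 0.67 and -3.30 ± 0.94 (SD, n = 4 each), a difference of 0.55 (1.47-fold) that is 0.68 of the SD within groups. Probe 2 (A_72_P744498), which names the same transcript, gave 0.57 (1.49-fold), with its values between -4.17 and -1.80. Both probes were well above background on 8 of 8 arrays. The probes lay within 0.32 of each other on each array. Whether their sequences overlap was not examined here. The SD of 0.81 was above that of 77.5% of the 315 genes within 1 log2 unit of its level.

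Single sows moved the MT1A difference over most of its size. Leaving out pregnant replicate 2 gave 0.24, and leaving out non-pregnant replicate 1 gave 0.90. Leaving out either of the 2 lowest sows, both non-pregnant, gave 0.28 (replicate 3) or 0.30 (replicate 2). On slide 1 it was 0.30 and on slide 2 0.81. With normexp, the offset and quantile normalization together it was 0.049, and with quantile normalization alone 0.53. MT1A was dim, with processed signals of 12.2 to 47.9 intensity units at probe 1.

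Other genes that bind or move zinc gave no call. Of 16 listed besides MT1A, 7 had a named probe and all 7 were tested, 3 with a positive and 4 with a negative difference (median -0.13, limma adjusted p = 0.999 each). MT3, another metallothionein, averaged 4.22 ± 1.11 in the pregnant group and 4.00 ± 0.26 in the other, a difference of 0.22, or -0.29 without pregnant replicate 2. SLC30A1, the zinc exporter of the plasma membrane, is itself induced by zinc through MTF1. It differed by -0.13 (95% interval -0.69 to 0.44), and its second probe by -0.13 as well. MT2A, MTF1 and SLC39A8 had no named probe. Metallothionein genes are near-identical copies that lie side by side, so a probe can read more than 1 of them, and this was not examined here.

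GADD45A was the brightest and steadiest of the 3 genes. At its probe, A_72_P146986, the pregnant values were 1.10, 1.55, 1.32 and 1.45 in replicates 1 to 4. The non-pregnant values were 1.32, 0.26, 0.48 and 0.81. The 4 pregnant sows lay within 0.45 of each other. In the non-pregnant group replicate 1 reached the pregnant range and the other 3 lay below it, so that the pregnant sow was higher in 14 of 16 pairings.

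The means were 1.35 ± 0.19 and 0.72 ± 0.46 (SD, n = 4 each), a difference of 0.64 (1.55-fold), or 1.79 times the SD within groups. CYP21A2 probe 1 had 1.72 by the same measure. The SD within groups, 0.36, was above that of 34.3% of genes. Leaving out 1 sow at a time gave between 0.48, when non-pregnant replicate 2 was dropped, and 0.84, when non-pregnant replicate 1 was. Without pregnant replicate 2 it was 0.57. On slide 1 the difference was 0.31 and on slide 2 0.96, and with normexp, the offset and quantile normalization together it was 0.37. Before scaling the pregnant signals were 632, 414, 578 and 607 intensity units and the non-pregnant signals 577, 295, 297 and 307.

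The tested genes listed for the DNA damage response and the cell cycle differed in both directions. This list mixes genes of differing roles, and most of it had no named probe. Its counts therefore do not describe a damage response or arrest as a whole. Of 23 listed besides GADD45A, 8 had a named probe and were tested, 4 with a positive and 4 with a negative difference (median -0.0051, limma adjusted p = 0.999 each). MDM2, a ubiquitin ligase, differed by -0.027 (95% interval -0.60 to 0.55). GADD45B, GADD45G, CDKN1A and PCNA had no named probe. Beside GADD45A on chromosome 6, GNG12 differed by 0.28 and IL12RB2 by -0.022 (limma adjusted p = 0.999 each), the only tested genes among its 10 nearest.

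The glucocorticoid receptor itself was near equal in the groups. NR3C1 averaged 1.97 ± 0.50 in the pregnant group and 2.01 ± 0.11 in the other, a difference of -0.041 (95% interval -0.66 to 0.58, limma adjusted p = 0.999). Its other probes differed by -0.013 and -0.27. FKBP4, a co-chaperone of the receptor, differed by -0.14 (95% interval -0.79 to 0.51), or 0.089 without pregnant replicate 2.

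The list of the receptor, its chaperones and its targets was split. Of 27 genes in the receptor and target list, 13 had a named probe and 11 were tested, 5 with a positive and 6 with a negative difference (median -0.0080, limma adjusted p = 0.999 each). All 5 positive ones were targets, and most of the 6 negative ones were the receptor and its chaperones. The counts therefore do not describe the targets alone. CD163, a haemoglobin scavenger receptor of monocytes that glucocorticoids induce, averaged 2.63 ± 0.23 in the pregnant group and 1.98 ± 0.85 in the other. The difference of CD163 was 0.64 at its brightest probe (95% interval -0.25 to 1.53). Its highest sow was non-pregnant replicate 2, at 3.12, above the pregnant values of 2.30 to 2.84. The 4 CD163 probes, read on the same arrays, differed by 0.52 to 0.64. THBD, thrombomodulin, differed by 0.31 (95% interval -0.40 to 1.01), with pregnant values of 0.44 to 0.65 and non-pregnant values of -0.41 to 1.09. A dimmer THBD probe, well above background on 4 pregnant and 1 non-pregnant arrays, differed by 0.54. Another, well above background on 3 pregnant and 2 non-pregnant arrays and not tested, differed by 1.15. The classic targets FKBP5, TSC22D3, PER1, DUSP1 and SGK1, and the mineralocorticoid receptor NR3C2, had no named probe and were not analysed here.

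Genes of heat shock, oxidative and endoplasmic reticulum stress gave 8 positive and 5 negative differences among 13 tested of 27 listed (median 0.043, limma adjusted p = 0.999 each). The largest difference of the list was that of NQO1, a quinone reductase of the oxidative stress response. It averaged 1.53 ± 1.66 in the pregnant group and -0.025 ± 0.76 in the other, a difference of 1.55 (95% interval -0.13 to 3.23), or 0.74 without pregnant replicate 2. HMOX1, the haem-degrading enzyme, differed by 0.24 (95% interval -0.31 to 0.79), and its 2 other probes by 0.34 and 0.46. DDIT3, a transcription factor of the endoplasmic reticulum stress response, differed by 0.27 (95% interval -0.35 to 0.89). ATF3, SOD2 and HSPA5 had no named probe. Over the 6 lists together, 66 genes were tested, and limma called 0 of them, against 0% of all genes. At an unadjusted p under 0.05 there were 0 of the 66, where 2.42% of all genes had one. Their groups did not overlap in 0 cases, against 1.38% of all genes.

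**Figure D4:**
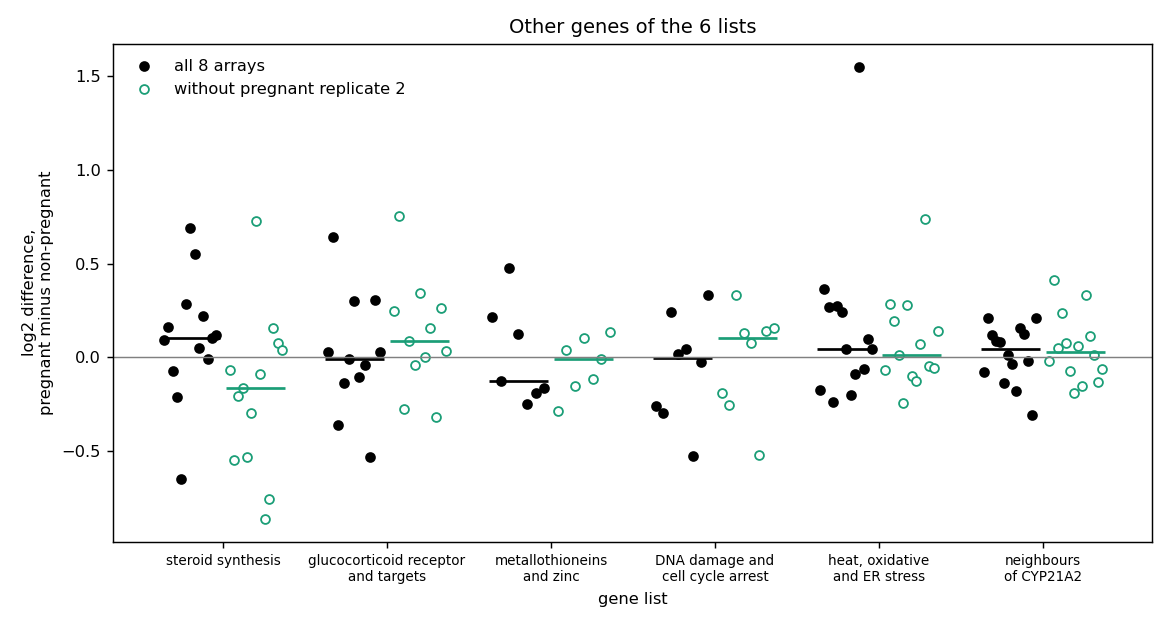
Log2 difference, pregnant minus non-pregnant, for each tested gene of the 6 lists without CYP21A2, MT1A and GADD45A, one point per gene at its brightest probe, with lines at the medians. Filled points use all 8 arrays and open points leave out pregnant replicate 2. The steroid synthesis median moves from 0.10 to -0.16.

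The 3 genes were then compared with each other across the 8 sows, at their brightest probes, in 3 pairs. Because the difference between groups chose the genes, r over all sows is a description. The test was made on deviations from the group means, permuted within each group, and was added after seeing the data. MT1A and GADD45A had r = 0.79 and Spearman's rho = 0.67 over all sows. Their deviations had r = 0.81 (exact permutation p = 0.0556, two-sided, adjusted 0.167 over 3 pairs). Without the 2 sows farthest from the MT1A median, non-pregnant replicates 2 and 3, r over the rest was 0.28. Without non-pregnant replicate 2 alone r was 0.69, and without non-pregnant replicate 3 alone 0.71. Leaving out both sows also narrows the range of MT1A, so whether the relation rests on them cannot be told.

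CYP21A2 and GADD45A had r = 0.68 and rho = 0.76 over all sows, and r = 0.77 without pregnant replicate 2 and non-pregnant replicate 4, the 2 sows farthest from the CYP21A2 median. Their deviations from the group means had r = 0.35 (exact permutation p = 0.288, adjusted 0.361). CYP21A2 and MT1A had r = 0.50 and rho = 0.19 over all sows, 0.29 without the same 2 sows, and -0.017 without pregnant replicate 2 alone. Their deviations had r = 0.36 (exact permutation p = 0.361, adjusted 0.361). None of the 3 relations passed the threshold of 0.05. The permutations treat the sows as independent, and some of them share a parent.

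The genes whose pattern over the 8 arrays was most like each member were listed by Pearson's r, among the genes well above background on all arrays (1703 genes, a member itself left out). For CYP21A2 these were NQO1, GPNMB, TG, WDTC1 and RAMP3, at r = 0.97 to 0.94. TG is the thyroid hormone precursor and RAMP3 a partner of peptide hormone receptors. All 5 were highest on pregnant replicate 2, NQO1 by 7.36-fold over the next array. Without that array r was 0.81 to 0.93. The likeness belonged to single probes where others could be read: the 2 other measured NQO1 probes had r of -0.55 and -0.087 with CYP21A2, the other GPNMB probe 0.37, and the 3 other TG probes -0.10 to 0.66.

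For MT1A the list was TREM1, TNFSF13B, DDIT3, VNN1 and COX6A1, at r = 0.91 to 0.85, and 0.78 to 0.89 without pregnant replicate 2. TREM1 is an activating receptor of neutrophils and monocytes, TNFSF13B the B cell survival factor BAFF, made largely by myeloid cells, and VNN1 a pantetheinase. The likeness held where other probes could be read: the other TNFSF13B probe had r = 0.81, and the 4 other COX6A1 probes 0.77 to 0.84. TREM1, DDIT3 and VNN1 had no other measured probe. DDIT3, already in the stress list, ran from -1.09 to -0.080 over the 8 sows.

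For GADD45A the list was CLK1, LYZ, TRIM39, DCT and IL15, at r = 0.88 to 0.82. LYZ, lysozyme of myeloid cells, had r = 0.95 without pregnant replicate 2, and its 2 other probes 0.81 and 0.86 over all arrays. IL15, a cytokine of monocytes that sustains NK cells, had r = 0.91 without that array and 0.81 at its other probe. CLK1, a splicing kinase, had 6 other probes with r of 0.62 to 0.86. The other probes of TRIM39 and DCT did not follow, at r = 0.20 and -0.089. These lists take the highest of many correlations over 8 arrays, and part of each is the difference between groups that chose the members.

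Blood is a mixture, and fewer cells of a type and less RNA per cell cannot be told apart in it. The mean of 6 tested monocyte and macrophage markers of 8 listed was 2.03 to 2.32 in pregnant and 1.46 to 1.93 in non-pregnant sows, and their summed signal, as log2, 5.86 to 6.15 and 5.28 to 5.64. Neither overlapped between groups, and CD163 and LYZ named above are among the 6. Groups did not overlap in 1.38% of single genes, a share that does not apply to means of several genes. The mean of 6 tested neutrophil markers of 11 listed was 2.86 on pregnant replicate 2 and 1.42 to 2.42 on the other arrays. Their summed signal ran from 5.42 to 7.77 in pregnant and from 6.61 to 8.99 in non-pregnant sows. By the sum, unlike the mean, the highest sow was thus non-pregnant. T cell markers, 6 of 8, had means of 1.25 to 1.91 in pregnant and 1.79 to 2.12 in non-pregnant sows. Cytotoxic lymphocyte and NK cell markers, 5 of 8, had means of 3.00 to 3.42 in pregnant sows and, without overlap, 3.48 to 4.11 in the others, though their summed signals overlapped (6.07 to 6.94 and 6.55 to 7.55). Means of B cell markers (3 of 6) and platelet markers (5 of 6) overlapped. Of 9 red cell markers 0 had a named probe. The lists were chosen with earlier results of these data known, so no change in a cell type is read from these values. The part of these cell types in the differences of CYP21A2, MT1A and GADD45A was not tested.

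**Figure D5:**
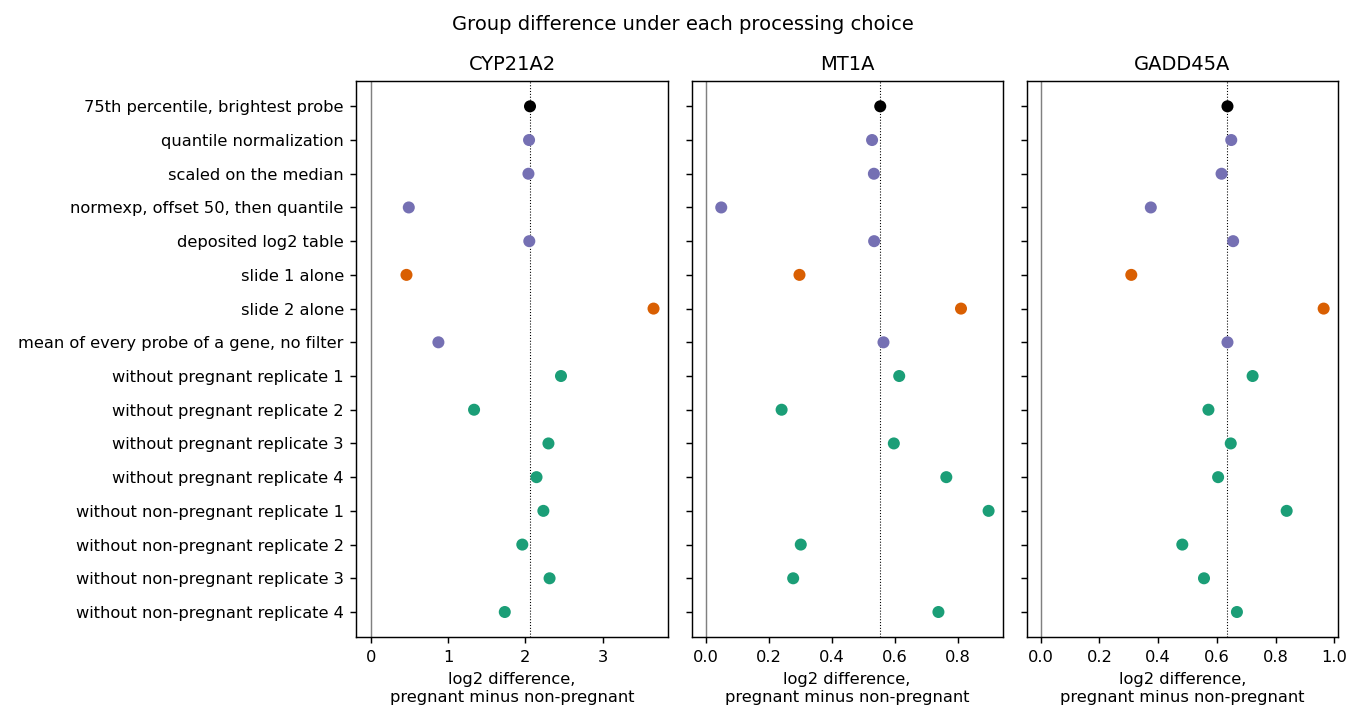
Log2 difference, pregnant minus non-pregnant, of CYP21A2, MT1A and GADD45A under other scalings and probe summaries (purple), on each slide alone (orange) and with 1 array left out (green), with the value reported above in black and as a dotted line. All points lie above 0, and the slides differ most for CYP21A2, at 0.46 and 3.66.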

How the data were processed

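Feature Extraction (Agilent) turned each scan into a text file of spots, in version 10.7.3.1 by the file headers and 10.7 by the submitters' processing notes. Its processed signal, as deposited, is a linear intensity from which background was subtracted within the array, per the file headers. A table of log2 values was deposited as well, with no method stated. Each column correlated with its own array's log2 signal at r of at least 0.99895, and all columns had a median of 5.03, so direction and scale are known and the normalization is not. It served as an alternative.

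Control spots and flagged spots were left out, spots of 1 probe were averaged, and log2 signals were taken relative to each array's 75th percentile. Of 43603 probes, 215 were dropped as flagged on some array. A probe was kept if all 4 arrays of either group read it well above background, which held for 26476 (60.7%), 4 of the 6 member probes among them. Names came from RefSeq transcripts in an Sscrofa11.1 table: 5436 of 5748 probes with such an accession matched. A gene is represented by its brightest kept probe, which gave 1817 genes. Groups were compared with limma 3.58.1 in R 4.3.3 (lmFit, eBayes, two-sided, Benjamini-Hochberg over all genes, threshold 0.05), as checked on simulated data. Other work used Python 3.11.15, pandas 2.3.3, SciPy 1.17.1 and matplotlib 3.10.9.

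The members and lists were chosen with earlier results of these data known. List genes are named for their role, apart from 1 that is not reported here, and for each member the 5 genes of highest r are named. NR5A1, STK19, C2, GNG12 and IL12RB2 were named after their values were seen. The number of arrays limits the precision. Separate sows are the replicates.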

Additional observations from a re-analysis of the deposited data

How the results depend on the processing

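Counts of called genes and probes stayed at 0 under every alternative run (smallest adjusted p 0.182 for genes and 0.227 for probes): quantile or median scaling, normexp on median signals (the files used here hold no mean signals), the deposited log2 table, no filter on dim probes or a stricter one, a block for slide or for replicate number, slides taken singly, the mean of a gene's kept probes, and each array left out. The replicate block left 0 genes (smallest limma adjusted p = 0.554). Deviations of same-numbered sows correlated at 0.22, 0.48, 0.43 and -0.12, and 4 of 8 arrays correlated best with their own number. Same-numbered sows also lay on the same slide, so these values include any likeness by slide. The labels do not say that numbers mark the 3 related pairs and the unrelated one. Whether they do is unknown, and p-values without the block treat the sows as independent.

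The CYP21A2 difference (2.06) was 0.49 with normexp, offset and quantile normalization together, 0.46 on slide 1 alone and 3.66 on slide 2 alone, and 1.34 to 2.46 with 1 array left out. The slide 2 value includes a spot not well above background. The cause of these shifts was not tested. Averaging all 3 CYP21A2 probes, an alternative chosen after seeing the data, gave 0.88, with 2 of the probes mostly at background. MT1A stayed between 0.049 and 0.90 and GADD45A between 0.31 and 0.96. With 1 array left out r was -0.017 (without pregnant replicate 2, where the sign turned) to 0.67 for CYP21A2 with MT1A, 0.63 to 0.74 for CYP21A2 with GADD45A, and 0.69 to 0.92 for MT1A with GADD45A. These r include the difference between groups that chose the genes, and no call is drawn from them.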
